A study of Sus scrofa with 102 samples.

Results

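*SMPDL3A* and *SGMS1*, both filed under sphingomyelin metabolism, were each followed through 1 probe of the 5493 deposited probes in *Longissimus dorsi*, the loin muscle, of 102 pigs. *SMPDL3A* was taken from the array annotation, which gave it 1 probe and gave *SGMS1* 0 probes. *SGMS1* rests on a probe that has no entry in the annotation used here and carries this gene name only in the study. Both genes were selected on measured values of these same pigs. *SMPDL3A* was chosen by its correlation with *LIPG*, and *SGMS1* by its place in the study's list of genes whose expression was paired with a chromosome region. That pairing was nominal and is not among those that passed the study's correction for multiple tests.

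The pigs came from a backcross in which Iberian Guadyerbas boars were mated to Landrace sows and the crossbred boars were mated again to Landrace sows, so the animals are related. All were fed ad libitum, and the groups differ in sex (55 females and 47 males) and in slaughter batch (8 females and 6 males in batch 1, 36 females and 34 males in batch 2, 11 females and 7 males in batch 3). Age at slaughter ran from 171 to 184 days and carcass weight from 43.6 to 97.8 kg. Batch 1 held the youngest pigs, 5 of them 171 days old and 8 of them 177 days old.

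Sphingomyelin is a phospholipid of the outer leaflet of the plasma membrane, where it packs with cholesterol. *SGMS1* encodes the sphingomyelin synthase of the Golgi, which moves phosphocholine from phosphatidylcholine to ceramide and releases diacylglycerol. *SMPDL3A* encodes a secreted and lysosomal relative of acid sphingomyelinase that cleaves nucleotides and the signalling dinucleotide cGAMP and is not known to cleave sphingomyelin itself. Its transcript is known to be induced by liver X receptors and by cyclic AMP. In the pig assembly Sscrofa11.1 *SMPDL3A* lies on chromosome 1 between *CLVS2* and *FABP7*, and *SGMS1* lies on chromosome 14 between *ASAH2* and *MINPP1*.

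The deposited values are GCRMA log2 intensities, so that a difference of 1 is a doubling of signal, and intensities do not rank genes because each probe binds with its own strength. The 3 muscle markers measured had mean log2 values of 14.20 for the slow troponin *TNNT1*, 12.98 for desmin (*DES*) and 12.90 for muscle glycogen phosphorylase (*PYGM*). The fibroblast gene *DCN* had 12.43, so bright signal alone does not settle the tissue label. In 4 arrays, 3 labelled female and 1 labelled male, the probes that separate males from females gave a mixed reading or that of the opposite sex. One array of batch 3 stood apart, with a median correlation of 0.746 to the other arrays against 0.820 or more for the rest. In whole muscle, fewer cells of a type and less RNA per cell cannot be told apart.

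*SMPDL3A* was among the most variable of the probes tested. Its log2 value was 6.82 in the lowest pig, 10.63 in the median pig and 13.91 in the highest pig, a 137-fold range of signal. Its SD of 1.47 was higher than that of 98.7% of the probes tested, and its mean was 10.49. In 79 of the 102 arrays (77.5%) the signal lay more than 1.5-fold from the median. The study describes a filter at this same fold, which kept probes with more than 20% of values beyond it in these arrays. If the tested probes are those it kept, a wide spread was a condition of entry. Shares of all probes are shares of the tested probes only, not of the whole array.

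*SGMS1* varied less. Its log2 value was 4.48 in the lowest pig, 6.14 in the median pig and 7.95 in the highest pig, an 11.1-fold range. Its SD of 0.71 was higher than that of 64.0% of the probes, and 45 arrays (44.1%) lay more than 1.5-fold from its median. The 3 systematic effects of the study's own model, which are sex, slaughter batch and carcass weight, together took up 25.3% of the variance of *SMPDL3A* and 40.7% of that of *SGMS1*. The larger share was sex for *SMPDL3A* (16.4% when entered last) and batch for *SGMS1* (33.1% when entered last).

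*SMPDL3A* was lower in females. The 55 females ran from 6.82 through a median of 9.78 to 12.34, and the 47 males from 7.22 through a median of 11.33 to 13.91. The sexes overlapped widely, although 44 of 55 females lay below the male median and 39 of 47 males lay above the female median. With batch and weight in the model, the fitted log2 difference, female minus male, came to -1.22 (standard error 0.26, n = 102, limma adjusted p = 0.000216), which is 2.34-fold with a 95% interval of 1.64-fold to 3.33-fold. This call is 1 of many, since 26.1% of the probes differed between the sexes, and *SMPDL3A* ranked 166 of 5449 by p.

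The difference had the same direction in each batch. It was -0.78 in batch 1 (standard error 0.59, 8 females and 6 males, adjusted p = 0.347 by a two-sided exact permutation test over 6 comparisons). In batch 2 it was -1.38 (standard error 0.33, 36 females and 34 males, adjusted p = 0.00036 by permutation). In batch 3 it was -1.08 (standard error 0.54, 11 females and 7 males, adjusted p = 0.224 by a two-sided exact permutation test). A dependence of the sex difference on batch was not found (adjusted p = 0.918 from limma), nor was it for any of the 5449 probes, of which 425 reached an unadjusted p under 0.05. The 3 female-labelled arrays among the 4 with a mixed or opposite reading had *SMPDL3A* values of 11.69 to 11.88, near the male median, and without those 3 and the male array the difference was -1.38 (adjusted p = 2.95e-05 from limma).

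*SGMS1* did not pass the test for sex. Its female values ran from 4.56 through a median of 5.99 to 7.51 and its male values from 4.48 through a median of 6.15 to 7.95. The fitted log2 difference was -0.13 with a 95% interval of -0.36 to 0.09 (adjusted p = 0.399 from limma), an interval that holds values up to 0.36 log2 units lower in females.

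*SGMS1* differed between slaughter batches instead. The 14 pigs of batch 1 ran from 5.58 through a median of 6.79 to 7.50 (log2), the 70 pigs of batch 2 from 4.48 through 5.84 to 7.18, and the 18 pigs of batch 3 from 6.34 through 6.84 to 7.95. Batches 1 and 3 thus lay above most of batch 2, with overlap in every pair. Batch 1 exceeded batch 2 by 0.76 (standard error 0.17, adjusted p = 3.57e-05 from limma), or 1.69-fold, and batch 3 exceeded it by 1.05 (standard error 0.15, adjusted p = 2.22e-09), or 2.07-fold. The difference of -0.29 between batches 1 and 3 did not pass the test (adjusted p = 0.323).

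Batch calls of this kind were the rule on these arrays. Of all probes, 86.6% differed among the 3 batches, 74.2% between batches 1 and 2, 81.5% between batches 3 and 2 and 16.8% between batches 1 and 3 (8.18% higher and 8.59% lower in batch 1), and the median difference over all probes was -0.11 for batch 1 and -0.17 for batch 3 against batch 2. *SGMS1* ranked 1928 of 5449 by the test over the 3 batches. Age differed between batches too. With age in the model, *SGMS1* exceeded batch 2 by 0.60 in batch 1 (adjusted p = 0.018 from limma) and by 1.06 in batch 3 (adjusted p = 1.95e-09). Within batch 1, *SGMS1* was 6.84 ± 0.64 at 171 days (SD, n = 5) and 6.53 ± 0.52 at 177 days (SD, n = 8).

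RNA state and muscle markers were compared over the same batches. The log2 difference between the 5′ and the middle control probe of actin, which falls as RNA degrades, was -1.28 ± 0.30, -0.80 ± 0.29 and -1.32 ± 0.43 in batches 1, 2 and 3 (SD, n = 14, 70 and 18). The mean log2 level of the 3 muscle marker genes had medians of 12.70, 13.69 and 12.70 in the same order, and 2 of these 3 genes were lower in batch 1 and in batch 3 than in batch 2, where 41.5% and 45.3% of all probes were lower. With the actin difference in the model, *SGMS1* still exceeded batch 2 by 0.61 in batch 1 (adjusted p = 0.00255 from limma) and by 0.89 in batch 3 (adjusted p = 4.59e-06).

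*SMPDL3A* followed another order of batches. It ran from 7.95 through a median of 9.44 to 11.29 in batch 1, from 6.82 through 10.72 to 13.91 in batch 2 and from 8.78 through 11.03 to 13.24 in batch 3. Batch 1 was lower than batch 2 in the fit (difference -0.92, standard error 0.38, limma adjusted p = 0.0251) and lower than batch 3 (difference -1.38, standard error 0.45, limma adjusted p = 0.0243), while batch 3 against batch 2 gave 0.46 (adjusted p = 0.223). The call between batches 1 and 2 was lost after quantile normalization (-0.72, adjusted p = 0.0763) and with the actin difference in the model (-0.80, adjusted p = 0.0906). Neither gene passed a test for carcass weight, with slopes per 10 kg of 0.06 for *SMPDL3A* (adjusted p = 0.876) and -0.03 for *SGMS1* (adjusted p = 0.838), and limma called 0% of the probes for weight, with 589 at an unadjusted p under 0.05.

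**Figure D1:**
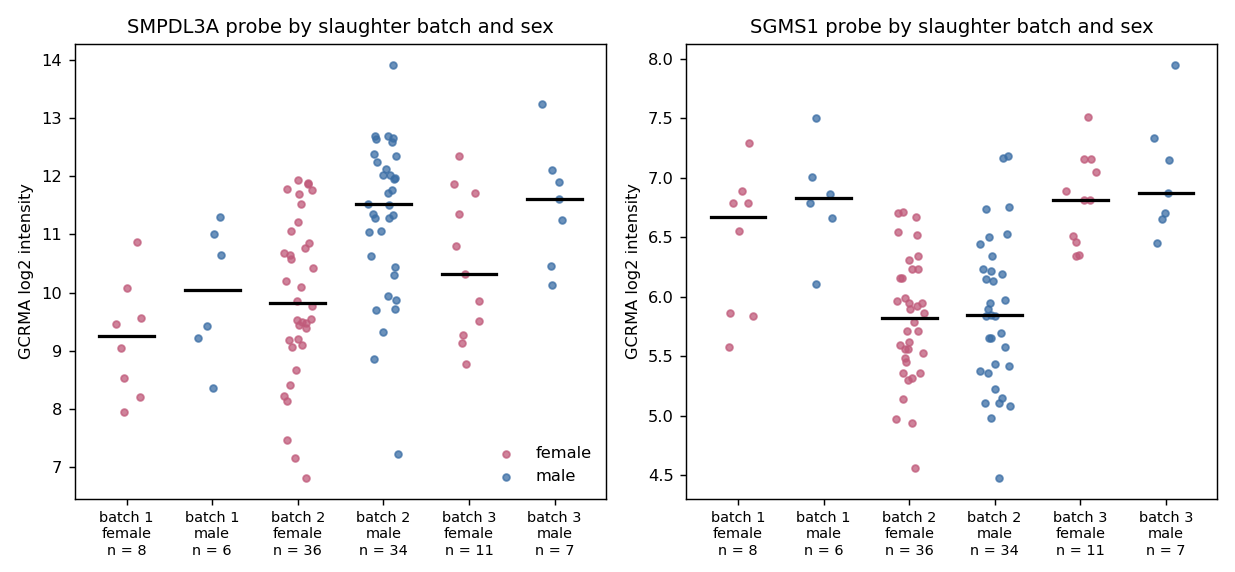
GCRMA log2 intensity of the *SMPDL3A* probe (left) and the *SGMS1* probe (right) in each of 102 pigs, by slaughter batch and sex, where points are pigs and black lines are group medians. Female medians of *SMPDL3A* lie below male medians in all 3 batches, and *SGMS1* medians of batches 1 and 3 lie above those of batch 2 in both sexes.

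To find the transcripts that moved with each gene, sex, batch and weight were removed from every probe, and each other probe was tested on the residual of the gene. The residual of *SMPDL3A* was matched by 557 of 5448 probes (10.2%), of which 315 (5.78% of all) moved the same way and 242 (4.44%) the opposite way. That of *SGMS1* was matched by 892 probes (16.4%), 311 of them the same way (5.71%) and 581 the opposite way (10.7%). Both lists changed with the arrays and effects used. With the first 2 principal components of the residuals as further effects, 207 probes moved with *SMPDL3A* and 86 with *SGMS1*.

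The genes closest to *SMPDL3A* were led by *NUP88*, a protein of the nuclear pore (r = 0.56, a slope of 0.30 log2 units per SD of *SMPDL3A*, standard error 0.04, adjusted p = 4.1e-06 from limma). *FOXO1*, a transcription factor that insulin signalling keeps out of the nucleus, followed with r = 0.55 (slope 0.34, adjusted p = 4.1e-06). *PDK4*, the kinase that shuts pyruvate out of oxidation and a known target of forkhead factors, had r = 0.52 (slope 0.35, adjusted p = 1.82e-05).

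The other 5 of the 8 probes that rose most closely with *SMPDL3A* had slopes of 0.22 to 0.67. *RETREG1*, a receptor for autophagy of the endoplasmic reticulum, was found by both of its probes (r = 0.54 and 0.52, slopes of 0.61 and 0.59). *GADD45A*, a stress and growth arrest gene, had r = 0.54 and a slope of 0.67. *SLC25A33*, a mitochondrial carrier of pyrimidine nucleotides, had r = 0.50 and a slope of 0.57, and *DNAJB6*, a co-chaperone, had r = 0.54 and a slope of 0.22. Of the other 3 probes of *DNAJB6*, 1 passed the test (r = 0.30, adjusted p = 0.0362), and the remaining values of r were 0.23 and 0.24.

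The 8 probes named in the opposite direction had smaller correlations. *ACSL3*, an acyl-CoA synthetase that activates long-chain fatty acids, had r = -0.47 (slope -0.26, adjusted p = 0.000147 from limma). *CITED2*, a transcriptional coregulator, had r = -0.46, *FKBP14*, a prolyl isomerase of the endoplasmic reticulum, -0.45, and *CDO1*, cysteine dioxygenase of the route to taurine, -0.44. The corepressor *RUNX1T1* (-0.42), the nuclear envelope protein *SYNE2* (-0.41), the receptor *NEO1* (-0.41) and *PGM3* of amino sugar synthesis (-0.39) completed the 8. The second probes of *SYNE2* (r = -0.35) and *NEO1* (r = -0.30) passed the test and that of *FKBP14* did not (r = -0.28, adjusted p = 0.0523).

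The largest correlation of all with *SMPDL3A* belonged to a probe with no gene symbol (r = -0.58, adjusted p = 2.65e-06 from limma). Of the 25 probes with the strongest correlation, 15 had 1 symbol. Partners chosen for a large r have an r that is larger than new pigs would be likely to give, and no other pigs were available to check them.

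**Figure D2:**
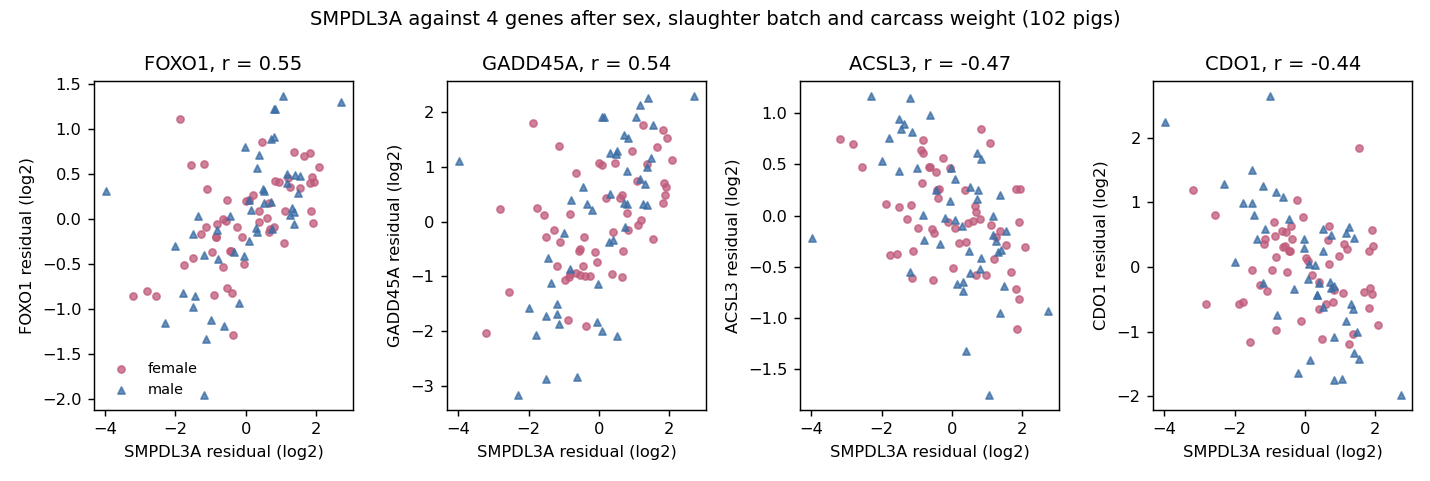
Residuals (log2) of *FOXO1*, *GADD45A*, *ACSL3* and *CDO1* against the residual of *SMPDL3A* after removal of sex, slaughter batch and carcass weight, where each point is 1 of 102 pigs, circles are females and triangles are males. *FOXO1* and *GADD45A* rise with *SMPDL3A* (r = 0.55 and 0.54), *ACSL3* and *CDO1* fall (r = -0.47 and -0.44), and r for *CDO1* is -0.14 in females and -0.68 in males.

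These relations had the same sign inside each slaughter batch. The probes were chosen for r over these same pigs, most of them in batch 2, so this is not an independent check. The 8 probes of the same direction had r of 0.57 to 0.88 in batch 1, 0.43 to 0.56 in batch 2 and 0.52 to 0.72 in batch 3, and the 8 of the opposite direction kept their sign in all 3 batches. Without the 2 pigs whose *SMPDL3A* residual lay farthest from the median, r ranged from 0.57 to 0.63 and from -0.50 to -0.37. With 2 principal components in the model, 12 of the 16 passed the test, and *CDO1*, *SYNE2*, *NEO1* and *PGM3* did not. In batch 2 alone 11 of the 16 passed, in females alone 8 and in males alone 16. The 8 probes of the same direction were also correlated among themselves, with a median r of 0.63 over 28 pairs, so they are not 8 separate observations.

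Although sex had been removed by label before partners were sought, the partners of *SMPDL3A* differed between the sexes in the same way as *SMPDL3A* itself. In 4 arrays the sex signal was mixed or opposite to the label, so removal by label may be incomplete there. Without those arrays all 16 named probes still passed the partner test. All 8 probes of the same direction were lower in females, by a median of -0.62, against 14.4% of all probes lower in females. They ran from -1.12 for *RETREG1* (standard error 0.23, adjusted p = 0.000153 from limma) to -0.27 for *DNAJB6* (adjusted p = 0.0127). Of the 8 in the opposite direction, 6 were higher in females, against 11.7% of all probes, led by *CDO1* (0.88, standard error 0.17, adjusted p = 6.65e-05), while *CITED2* (0.24, adjusted p = 0.195) and *RUNX1T1* (0.23, adjusted p = 0.0708) did not pass.

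*LIPG*, the endothelial lipase through which *SMPDL3A* was noticed, has its gene name from the study, since its probe carries no symbol in the annotation. Its r with *SMPDL3A* was 0.52 over all pigs, which is given as a description because it chose the gene. In batches 1, 2 and 3 the value was 0.75, 0.52 and 0.31. It was 0.50 in females and 0.54 in males. With *SGMS1*, *LIPG* had r = 0.17 (adjusted p = 0.223 from limma).

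Chromosomal neighbours of *SMPDL3A* did not share 1 direction. Among the 10 genes on each side of *SMPDL3A* in Sscrofa11.1, 4 were measured, and 2 of them moved with it or against it, where 10.2% of all probes did. *PKIB*, an inhibitor of the cyclic AMP-dependent kinase that lies 2 genes away, had r = -0.32 (adjusted p = 0.0212 from limma), and the heat shock factor *HSF2*, which lies 4 genes away, had r = 0.34 (adjusted p = 0.0119). *GJA1*, a gap junction protein, had r = 0.23 (adjusted p = 0.134) and *HDDC2* had r = 0.08 (adjusted p = 0.719). No gene within 10 of *SGMS1* was measured.

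The probes closest to *SGMS1* had a different content. In the same direction, *ATP6V1B2*, a subunit of the proton pump that acidifies lysosomes and Golgi, had r = 0.44 (slope 0.12 log2 units per SD of *SGMS1*, standard error 0.03, adjusted p = 0.00326 from limma). *CHSY1*, which builds chondroitin sulfate in the Golgi, had r = 0.42, and *HIF1A*, the oxygen-regulated transcription factor, had r = 0.41. The glucocorticoid receptor *NR3C1* had r = 0.40 on the probe named here and 0.31 on its other probe, both of which passed the test.

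The remaining probes of the same direction were *ZKSCAN5*, a zinc finger protein (r = 0.41), *SON*, a splicing cofactor (r = 0.40), *DNAJC2*, a chaperone of the ribosome (r = 0.39), and *ADAMTS1*, a matrix protease (r = 0.39). The other probe of *ADAMTS1* passed (r = 0.34, adjusted p = 0.00989) and that of *DNAJC2* did not (r = 0.16, adjusted p = 0.28).

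In the opposite direction stood *ALKBH5*, which removes methyl groups from adenosines in messenger RNA, with both of its probes (r = -0.47 and -0.44, adjusted p = 0.00204 from limma for each). The aminopeptidase-like *NPEPL1* and *C2H19orf60* had r = -0.46, and the co-chaperone *DNAJB2* had r = -0.46. The kinase *CDK16* had r = -0.45, *MAPK12*, a p38 kinase abundant in muscle, had r = -0.45, and *DENND4B*, which activates a small GTPase of vesicle traffic, had r = -0.45. The largest correlation of all belonged again to a probe with no symbol (r = 0.51, adjusted p = 0.000234).

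**Figure D3:**
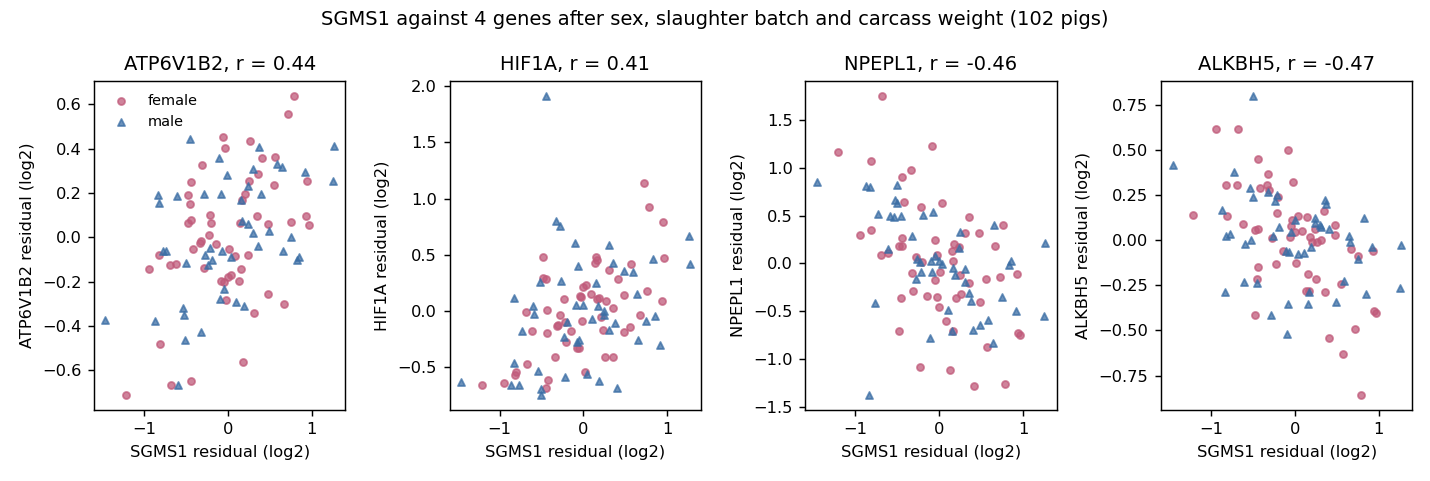
Residuals (log2) of *ATP6V1B2*, *HIF1A*, *NPEPL1* and *ALKBH5* (the probe with the larger correlation) against the residual of *SGMS1* after removal of sex, slaughter batch and carcass weight, where each point is 1 of 102 pigs, circles are females and triangles are males. *ATP6V1B2* and *HIF1A* rise with *SGMS1* (r = 0.44 and 0.41), and *NPEPL1* and *ALKBH5* fall (r = -0.46 and -0.47).

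The partners of *SGMS1*, also chosen for r over these same pigs, changed in other settings than those of *SMPDL3A*. In batch 3 only 5 of the 8 probes of the same direction kept their sign, with r from -0.21 for *HIF1A* to 0.17, whereas in batch 2 they had r of 0.42 to 0.54. Of the 8 in the opposite direction, 7 kept their sign in batch 3. With 2 principal components in the model, 6 of the 16 passed the test. In batch 2 alone 16 of the 16 passed and in females alone 15. In males alone 0 passed, by limma over all probes, although each kept its sign there.

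Most of these partners, found after batch had been removed, differed between batches as *SGMS1* did or in the opposite way, according to the sign of r. In the same direction, 6 of 8 probes were higher in batch 1 than in batch 2, against 32.7% of all probes, and 6 were higher in batch 3, against 36.2%. In each comparison *NR3C1* was lower and 1 probe did not pass. All 8 in the opposite direction were lower in batch 1, against 41.5% of all probes, and lower in batch 3, against 45.3%, by medians of -0.81 and -0.95. These 8 include both probes of *ALKBH5* and had a median r of 0.59 among themselves over 28 pairs. For the 8 of the same direction that median was 0.33, so neither set is 8 separate observations. The actin difference had r = -0.20 with *SGMS1* and 0.07 with *SMPDL3A* over the residuals, and with it in the model 225 probes moved with *SGMS1* in place of 892, with all 16 named probes still among them. The part of RNA integrity in these relations was not tested further.

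**Figure D4:**
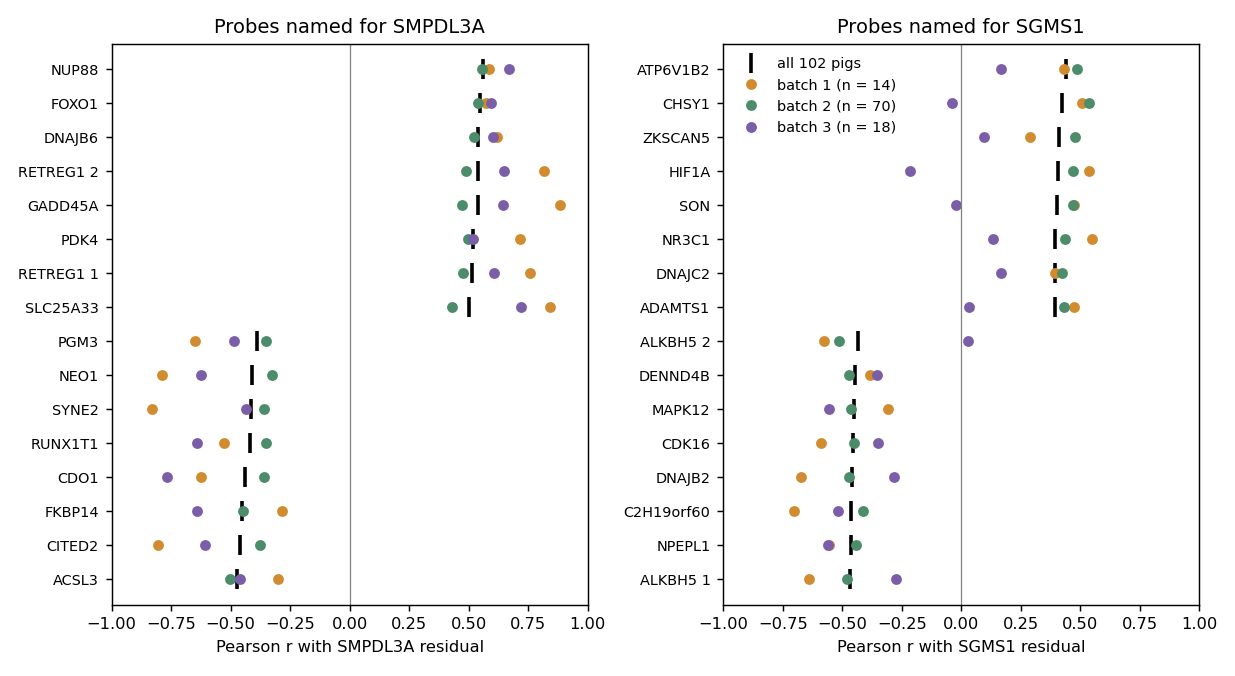
Pearson r of each named probe with the residual of *SMPDL3A* (left) or *SGMS1* (right), where black ticks are all 102 pigs and coloured points are batch 1 (n = 14), batch 2 (n = 70) and batch 3 (n = 18); a number after a gene marks its first or second probe. For *SMPDL3A* all 16 probes lie on the same side of 0 in every batch, and for *SGMS1* the batch 3 points of 4 probes lie on the other side of 0.

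Of the other genes of sphingolipid metabolism, 9 were measured with a gene name. With *SMPDL3A* 1 of the 9 moved, against 10.2% of all probes, and with *SGMS1* 3 moved, against 16.4% of all probes. Of the enzymes of sphingomyelin hydrolysis, 0 had a probe with their symbol. Among the 3 genes of sphingolipid synthesis, *ORMDL3*, which restrains the first enzyme of the route, moved against *SGMS1* (r = -0.32, adjusted p = 0.019 from limma) and had r = -0.06 with *SMPDL3A*. *KDSR*, the reductase of the second step, had r = 0.28 with *SMPDL3A* (adjusted p = 0.0555) and 0.19 with *SGMS1* (adjusted p = 0.186). The ceramide synthase *CERS2* had r = 0.18 and 0.07. The smallest r to pass, whatever its sign, was 0.28 for *SMPDL3A* and 0.26 for *SGMS1*. Many calls in these lists lie near it, and list genes were not followed through the other settings.

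Ceramide reaches the Golgi through transfer proteins that dock on VAP proteins of the endoplasmic reticulum. Of these, *VAPB* moved against *SGMS1* (r = -0.30, adjusted p = 0.029 from limma) and *VAPA* did not pass (r = 0.07, adjusted p = 0.688). With *SMPDL3A*, *VAPA* had r = 0.23 and *VAPB* 0.07, and neither passed. The sphingosine 1-phosphate receptor *S1PR1* had r = 0.08 with *SMPDL3A* and 0.14 with *SGMS1*, and the probe that the study names as the ceramidase *ASAH1* had r = -0.21 (adjusted p = 0.176) and 0.23 (adjusted p = 0.0914).

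Glycosphingolipids start from the same ceramide. *B4GALT5*, a synthase of lactosylceramide, moved in the same direction as both genes, with r = 0.36 for *SMPDL3A* (adjusted p = 0.00697 from limma) and r = 0.28 for *SGMS1* (adjusted p = 0.0367). The glucosylceramidase *GBA2* had r = 0.16 and -0.02, and *PSAP*, the precursor of the saposins, had r = 0.06 and 0.21. Of the 3 genes on the phospholipid side, *LPCAT3*, which puts polyunsaturated fatty acids into phosphatidylcholine, moved with *SMPDL3A* (r = 0.30, adjusted p = 0.0283). *PEMT*, which makes phosphatidylcholine from phosphatidylethanolamine, moved against *SGMS1* (r = -0.31, adjusted p = 0.0196), and *DGKE*, a diacylglycerol kinase, had r = 0.25 with *SGMS1* (adjusted p = 0.0683).

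**Figure D5:**
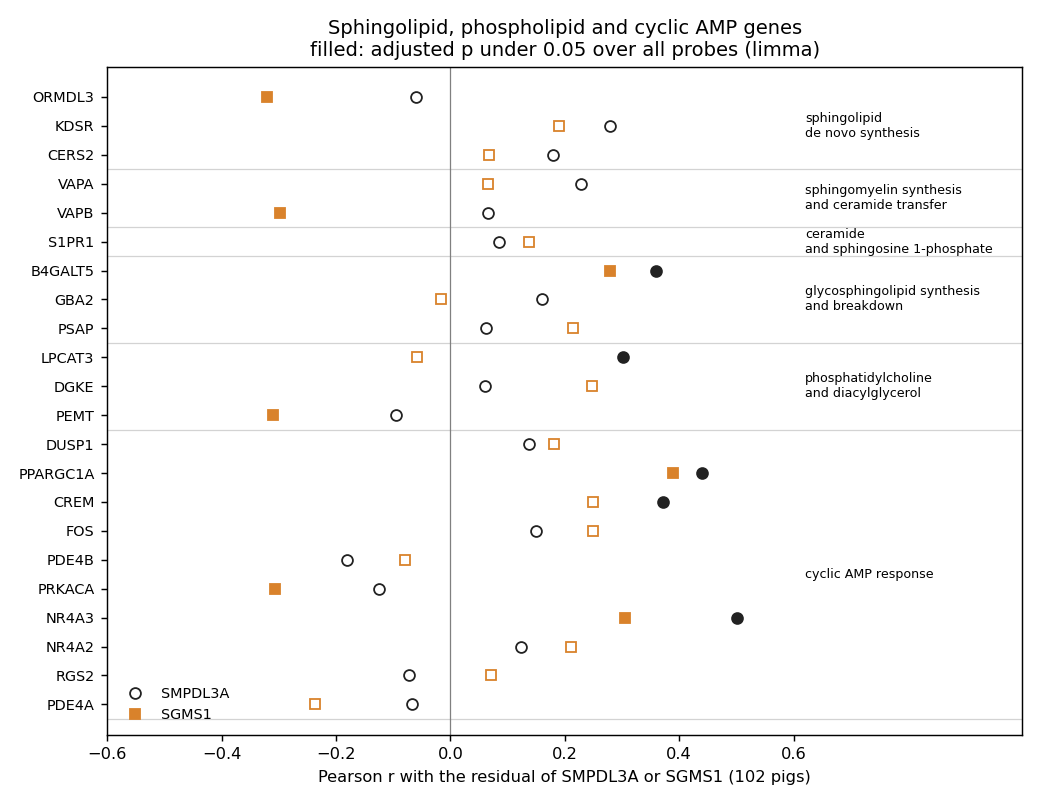
Pearson r over 102 pigs of genes of sphingolipid, phospholipid and cyclic AMP lists (rows) with the residual of *SMPDL3A* (circles) and of *SGMS1* (squares), where filled symbols passed an adjusted p under 0.05 over all probes. *NR4A3*, *PPARGC1A* and *CREM* have the largest values for *SMPDL3A*, at 0.50, 0.44 and 0.37.

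Of 10 genes that respond to or carry cyclic AMP signals, 3 moved the same way as *SMPDL3A* and 0 the opposite way, against 5.78% and 4.44% of all probes, with a median r of 0.13 against -0.02 over all probes. They were the orphan nuclear receptor *NR4A3* (r = 0.50, adjusted p = 2.65e-05 from limma), the coactivator *PPARGC1A* (r = 0.44, adjusted p = 0.00037) and the cyclic AMP modulator *CREM* (r = 0.37, adjusted p = 0.00435). The other 7 did not pass, among them the phosphodiesterase *PDE4B* (r = -0.18). With *SGMS1*, *PPARGC1A* (r = 0.39) and *NR4A3* (r = 0.30) moved the same way and the kinase subunit *PRKACA* (r = -0.31) the opposite way. Of all probes, 5.71% moved the same way as *SGMS1* and 10.7% the opposite way.

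Of 9 liver X receptor genes and targets, 1 moved with *SMPDL3A* and 1 against it, where 5.78% and 4.44% of all probes did so, with a median r of -0.00. These were *LPCAT3*, given above, and *MYLIP*, which degrades the low density lipoprotein receptor (r = -0.30, adjusted p = 0.031 from limma). The phospholipid transfer protein *PLTP* had r = 0.28 (adjusted p = 0.0543) and the receptor *NR1H3* had r = -0.01. With *SGMS1*, 0 of the 9 passed, where 16.4% of all probes did. *NR1H3* (r = -0.25, adjusted p = 0.0697 from limma) had the smallest p.

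Of 11 lysosomal genes, 1 moved with or against each gene, where 10.2% of all probes did so for *SMPDL3A* and 16.4% for *SGMS1*. The cholesterol transporter *NPC1* moved with *SMPDL3A* (r = 0.35, adjusted p = 0.00922 from limma), and its partner *NPC2* had r = 0.22 (adjusted p = 0.144). With *SGMS1* the lysosomal transcription factor *TFEB* moved in the opposite direction (r = -0.32, adjusted p = 0.0166). Of the 2 nucleotide-cleaving ectoenzymes measured, *ENPP1* moved with *SGMS1* (r = 0.31, adjusted p = 0.0223) and had r = 0.17 with *SMPDL3A*, and *ENPP2* passed with neither.

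Markers of other cells of muscle were compared with both genes. For *SMPDL3A*, 0 of 7 macrophage, 0 of 7 endothelial, 0 of 6 fibroblast and 0 of 3 muscle genes passed, and 1 of 6 adipocyte genes did, the hormone-sensitive lipase *LIPE* (r = 0.29, adjusted p = 0.0362 from limma), where 10.2% of all probes moved with *SMPDL3A*. The 7 macrophage markers had a median r of -0.01 with *SMPDL3A*, from -0.21 for *AIF1* to 0.20 for *CD163*. Their mean level ran from 4.05 through a median of 5.38 to 7.59 in females. In males it ran from 3.94 through 5.42 to 7.05, and none of the 7 markers differed between the sexes. Adipocyte marker *ADIPOQ* was dim (mean log2 2.95) and had r = -0.13. Of endothelial genes, 3 of 7 were lower in females, against 14.4% of all probes, and their part in the sex difference of *SMPDL3A* was not tested.

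For *SGMS1*, *DES* moved in the opposite direction (r = -0.37, adjusted p = 0.00658 from limma), as did the endothelial von Willebrand factor *VWF* (r = -0.31, adjusted p = 0.0205), 1 of 3 muscle and 1 of 7 endothelial genes, where 10.7% of all probes moved that way. *TNNT1* had r = -0.26 (adjusted p = 0.0551) and *PYGM* -0.12. The mean of the 3 muscle markers had r = -0.34 with *SGMS1* and 0.03 with *SMPDL3A* over the residuals of the 102 pigs. No adipocyte, macrophage or fibroblast gene passed with *SGMS1*, where 16.4% of all probes did. Whether fibre content has a part in the relations of *SGMS1* was not tested.

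The 2 genes were only weakly related to each other. Over the residuals r was 0.21 and Spearman's rho 0.19 (two-sided permutation p = 0.0321 and 0.0514 over 102 pigs, the only pair of the 2 probes), and r was 0.28 without the 2 pigs whose *SMPDL3A* residual lay farthest from the median. By batch r was 0.16, 0.22 and 0.22. In the test over all 5448 probes *SGMS1* did not pass with *SMPDL3A* (adjusted p = 0.166 from limma). The lists of probes that moved with each shared 79 probes, 76 of which moved the same way with both. These were 14.2% of the probes of *SMPDL3A*, where 16.4% of all probes moved with *SGMS1*, and 8.86% of the probes of *SGMS1*, where 10.2% of all probes moved with *SMPDL3A*. The lists rest on the same arrays.

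The genes that the study pairs with the same chromosome region as *SGMS1* did not pass the test with it. The study lists these pairings at a nominal threshold, and they are not among those that passed its correction for multiple tests. By the study's probes, r with *SGMS1* was 0.07 for *PNPLA4*, a lipase, -0.07 for *PTGR2*, a prostaglandin reductase, and -0.16 for *THRB*, a thyroid hormone receptor. The value was -0.02 for *AGPAT9*, an acyltransferase, and 0.02 for *DPP4*, a dipeptidyl peptidase. None passed (smallest adjusted p = 0.285 from limma, for *THRB*), where 16.4% of all probes moved with *SGMS1*. So few probes cannot show a departure from that share. The probes of *THRB* and *AGPAT9* carry no symbol in the annotation used here.

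Numbers of related probes differed between the sexes. In females alone 39 probes moved with *SMPDL3A* and 1420 with *SGMS1*, and in males alone 469 and 6. In a test of the difference itself, added after these counts had been seen, the relation differed between the sexes for 8 probes with *SMPDL3A* (0.147%, 723 at an unadjusted p under 0.05) and for 28 with *SGMS1* (0.514%, 1263 at an unadjusted p under 0.05). Each of these counts turned on 2 pigs, which were not the same pigs for both genes. Without the 2 pigs with the farthest residual of the gene tested, limma gave 596 probes for *SMPDL3A* and 0 for *SGMS1*. Among the 16 named probes of each gene, *CDO1* with *SMPDL3A* was the only one whose relation differed between the sexes.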

How the data were processed

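RNA of *Longissimus dorsi* from 102 pigs was measured on Affymetrix porcine arrays, 1 array per pig. The deposited values are log2 intensities, which the authors normalized with GCRMA (version not given in the sources used here). Arrays carry no counts, so their number limits the precision. Control probes (44) were left out and 5449 probes were tested, 2639 of them with 1 gene symbol, 49 with several and 2761 with none. Shares of all probes refer to the probes tested, which may be only those that passed the study's filter for spread.

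Each probe was fitted with limma 3.58.1 in R 4.3.3 on sex, slaughter batch and carcass weight. All tests were two-sided, with Benjamini-Hochberg adjustment across the 5449 probes and a threshold of 0.05. Pigs were treated as independent, since the pedigree is not used here, so p-values may be too small. Partners were tested on the residual of each gene, standardized, in the same model. The model was also run on simulated data. For partners these data had independent noise in each probe, unlike the real residuals, so they do not check the counts of partners. Named genes were the 8 probes with 1 symbol and the largest r in each direction, *LIPG*, all measured genes of 3 sphingolipid lists, up to 4 of every other list by p, and the study's probes. Lists used the probe with the highest mean, by their symbols. The members, lists and alternatives were chosen with earlier results of these data known. Permutation tests and figures used Python 3.11.15 with numpy 2.4.6, scipy 1.17.1 and matplotlib 3.10.9, with 100000 permutations where groups were not small enough for an exact test. Genotypes and fatty acids are not used here, and the study's *SPTLC2* probe is not analysed here.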

Additional observations from a re-analysis of the deposited data

Results flagged for a closer look

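The relation of *CDO1* with *SMPDL3A* differed between females and males by a test of the difference itself. Over the residuals r was -0.14 in 55 females and -0.68 in 47 males, and the slope per SD of *SMPDL3A* was 0.63 log2 units higher in females (adjusted p = 0.0463 from limma over 5448 probes). The adjusted p was 0.00364 without the 2 pigs with the farthest residual and 0.0817 without the 4 arrays with mixed or opposite sex signal. The slope difference was 0.62 and 0.61 in these settings. The cause was not tested.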

How the results depend on the processing

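The sex difference of *SMPDL3A* and the batch 1 and batch 3 differences of *SGMS1* from batch 2 passed the test in every alternative that gave a value. For *SMPDL3A*, batch 1 minus batch 2 no longer passed after quantile normalization (-0.72) or with the actin difference in the model (-0.80), and batch 3 minus batch 2 passed after quantile normalization (0.80, adjusted p = 0.0295 from limma). The weight slope of *SGMS1*, which passed no test in the full model, was 0.069 in batch 2 only (adjusted p = 0.92) and -0.18 with no other effects (adjusted p = 0.016). The cause was not tested.

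The probes that moved with *SMPDL3A* numbered 557, but 207 with 2 principal components, 1081 with array weights, 158 in batch 2 only and 39 in females only. Those that moved with *SGMS1* numbered 892, but 86 with 2 principal components, 225 with the actin difference, 565 in batch 2 only, 1420 in females only and 6 in males only. Of the 207, 111 were among the 557, and of the 86, 55 were among the 892. Of the alternative values for the probes closest to each gene and for *LIPG*, 398 kept their direction and their side of the threshold and 44 kept their direction only. The probes were chosen for their r in these same arrays, and *SMPDL3A* for its r with *LIPG*. These numbers therefore describe the settings and are not independent support. Other genes of the pathway and marker lists were not followed through the alternatives. An array with a median correlation of 0.746 to the others was left out as an alternative chosen after the data had been seen. The tests of sex, batch and weight, of the closest probes and of *LIPG* kept their calls. Without that array, 561 probes moved with *SMPDL3A* (550 of them among the 557) and 1042 with *SGMS1* (891 of them among the 892). No paired analysis was possible because each pig has its own number and is in 1 group only.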
